A study of Mus musculus with 4 samples.

Results

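Homeostatic microglia genes are the transcripts by which resident microglia are usually told apart from other myeloid cells, and 31 of them were followed here out of 31053 genes counted. The 31 were taken by symbol from a fixed list, and every one of them was a feature of the count matrices. The study sequenced single immune cells that had infiltrated brain tumours. The mice were C57BL/6 with a genetically engineered glioma model, taken when symptomatic, and their tumours expressed IDH1 in its wild-type form (wtIDH1) or in a mutant form (mIDH1). Mutant IDH1 is an altered isocitrate dehydrogenase that makes an oncometabolite, and the design text names the heterogeneity of infiltrating myeloid cells as the question. Each genotype had 2 libraries of 10x Genomics droplets, so the comparison was of tumours with mIDH1 against tumours with wtIDH1, with no tumour-free brain among the samples used here. The driver of the tumours, the age of the mice, the way immune cells were isolated, and whether the 2 libraries of a genotype came from separate animals are not given in the sources used here. The p-values of the genotype tests below therefore measure the spread between libraries, which may be technical. Tests between classes of cells took each library as a block, so their p-values measure how class differences vary between libraries. A permutation of 2 against 2 libraries cannot go below an exact p of 0.333.

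Microglia are the resident macrophages of the brain parenchyma. They come from yolk sac progenitors and are held in their resting state by TGF-beta, CSF1 receptor signalling and transcription factors such as Sall1 and Mef2c, and in that state they read purines, chemokines and lipids through P2ry12, Cx3cr1 and Gpr34. Glioma also holds macrophages and monocytes recruited from blood, which share part of this programme, so a gene can mark microglia against T cells and still fail to part them from other myeloid cells.

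The deposited libraries held 16289 cell barcodes, of which 13197 were kept (2980 to 3653 per library, median 2700 to 4959 UMIs per kept cell). A UMI is 1 counted molecule, and levels are UMIs of a gene per 1000000 UMIs of the cells named (CPM). Of the kept barcodes, 47 occurred in more than 1 library. Microglia were gated as cells with at least 1 UMI of both Fcrls and Tmem119, which gave 66 and 124 cells in the wtIDH1 libraries against 125 and 25 in the mIDH1 libraries. Macrophage-gated cells had C1q transcripts at 0.2% of UMIs or more, at least 2 of Ms4a7, Tgfbi, Itga4 and Mrc1, and no Fcrls or Tmem119 (346, 495, 189 and 104 cells). Monocyte-gated cells had Ly6c2, Ccr2 and Lyz2, C1q under that limit, and no Fcrls or Tmem119 (313, 166, 174 and 192 cells). Within a factor of 2 of the C1q limit lay 261 of 1134 macrophage-gated and 65 of 845 monocyte-gated cells. A gate is a marker rule and no pure cell type. Of the 340 microglia-gated cells, 66.5% lay in the microglia-like clusters and 26.8% in macrophage-like clusters, and the second share was 33.3% and 33.9% in the wtIDH1 libraries against 20% and 8.0% in the mIDH1 libraries.

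The level of neutrophil RNA markers moved with genotype in these gates. Neutrophils were 1.70% and 3.29% of kept cells in the wtIDH1 libraries against 20.9% and 44.1% in the mIDH1 libraries. The summed level of 6 neutrophil RNA markers in microglia-gated cells was 550.0 and 328 CPM in the wtIDH1 libraries and 5270 and 8364 CPM in the mIDH1 libraries, and 5 of the 6 passed the genotype test there. In macrophage-gated cells the sum was 395 and 319 against 986 and 2874 CPM (3 of 6 passed), and in monocyte-gated cells 115 and 115 against 711 and 964 CPM (5 of 6 passed). Over all genes 0.569%, 3.82% and 10.1% passed the genotype test in microglia-gated, macrophage-gated and monocyte-gated cells. In monocyte-gated cells of wtIDH1 replicate 2, 1 of the 6 markers was at 0. All 6 were read in every other library of the 3 gates. T cell markers summed to 5.12 to 7.84 CPM in microglia-gated cells and 10 markers of non-immune brain cells to 76.8 to 106 CPM. Of the microglia-gated cells, 0 of 66 and 1 of 124 in the wtIDH1 libraries lay outside microglia-like, macrophage-like and monocyte-like clusters. In the mIDH1 libraries it was 12 of 125 and 3 of 25. Over all libraries the neutrophil-like clusters 8, 9, 10 and 11 held 9, 1, 4 and 1 microglia-gated cells. The part of neutrophil RNA or of such cells in the genotype results below was not tested.

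The promoters of a pair of members are shown because each carries a match to a short pattern searched for in the member windows. Cx3cr1 was the called member with the largest change in macrophage-gated cells. Slco2b1 was the transporter with the largest difference between microglia-gated and monocyte-gated cells. The sequences are from RefSeq on GRCm38.p6, 250 bases before to 50 after an annotated start, and 23 of the 31 members matched 32 such windows. In Cx3cr1 (chr9:120068247-120068546, minus strand) the capitals mark a loose form of the MEF2 core, CTA and TAG with 4 bases of any kind between them. This pattern is looser than the MEF2 site itself, so a match need not be such a site. The pattern is its own reverse complement and was found as 1 site on both strands. In Slco2b1 (chr7:99711291-99711590, minus strand) they mark GAGGAAGT, the core read by PU.1 and other ETS factors. Each motif was searched on both strands and matched 1 of the 32 member windows. Over all 32851 windows the share was 3.69% for the loose MEF2 pattern and 3.20% for the ETS core. A match is a description of these letters and shows no binding.
Cx3cr1: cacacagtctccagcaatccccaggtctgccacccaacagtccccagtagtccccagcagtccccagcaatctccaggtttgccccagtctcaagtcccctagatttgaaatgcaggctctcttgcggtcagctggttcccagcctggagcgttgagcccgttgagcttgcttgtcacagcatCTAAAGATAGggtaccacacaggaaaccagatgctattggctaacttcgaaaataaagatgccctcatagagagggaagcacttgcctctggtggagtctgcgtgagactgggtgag
Slco2b1: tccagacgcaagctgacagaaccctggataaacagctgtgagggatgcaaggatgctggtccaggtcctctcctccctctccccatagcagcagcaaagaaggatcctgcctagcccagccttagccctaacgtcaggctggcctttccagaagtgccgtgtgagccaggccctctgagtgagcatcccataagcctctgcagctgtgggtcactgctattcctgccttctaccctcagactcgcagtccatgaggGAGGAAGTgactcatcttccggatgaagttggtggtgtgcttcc

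The gate genes themselves were looked at in whole clusters, which held gated and ungated cells. Of the 340 microglia-gated cells, 226 lay in the microglia-like clusters. Each cluster took its name from its gated cells, so these counts are not independent of the gate. Fcrls encodes an Fc receptor-like surface protein (chromosome 3, 87250758 to 87263738, mm10) and Tmem119 a transmembrane protein (chromosome 5, 113793729 to 113800516), 2 of the most used microglial markers in mouse. Of 899 cells in the 2 microglia-like clusters, 261 had both, 139 had Fcrls only and 117 had Tmem119 only. Of 3293 cells in macrophage-like clusters, 96 had both, 132 had Fcrls only and 450 had Tmem119 only, and of 1517 cells in monocyte-like clusters the counts were 8, 29 and 129. For each Fcrls UMI there were 0.764 Tmem119 UMIs in microglia-like clusters, 2.27 in macrophage-like and 4.78 in monocyte-like clusters. By library the microglia-like ratio ran from 0.537 to 1.18. The macrophage-like ratio was 3.01 and 0.980 in the wtIDH1 libraries against 4.20 and 3.76 in mIDH1, so in wtIDH1 replicate 2 it lay close to the 0.940 of that library's microglia-like clusters, and without that library it was 3.66 over the other 3. The monocyte-like ratio ran from 1.55 to 14, the latter on 1 Fcrls UMI. T cell clusters, which should lack both genes, had both in 2, Fcrls only in 11 and Tmem119 only in 7 of 1719 cells, with a ratio of 0.867, and neutrophil clusters had 17, 40 and 20 of 3344 cells with a ratio of 0.618. The macrophage-like cluster 4 stood farthest from the microglial ratio, at 8.16 Tmem119 UMIs per Fcrls UMI, with Tmem119 only in 192 of 901 cells. The name of that cluster rests on 48.8% of its gated cells, 142 being macrophage-gated, 113 monocyte-gated and 17 microglia-gated. The level of Fcrls in macrophage-like clusters was 3.44% of its level in microglia-like clusters (2.18% to 5.19% by library) and that of Tmem119 10.2% (4.65% to 17.5%), and in monocyte-like clusters 0.763% and 4.77%. These counts of cells were not thinned to equal depth. The median was 1468 UMIs per cell in microglia-like, 7613 in macrophage-like and 8046 in monocyte-like clusters. The larger of the 2 microglia-like clusters, with 681 cells, had a median of 1113 UMIs per cell. A cell without a UMI of either gene there may still have expressed it.

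**Figure D1:**
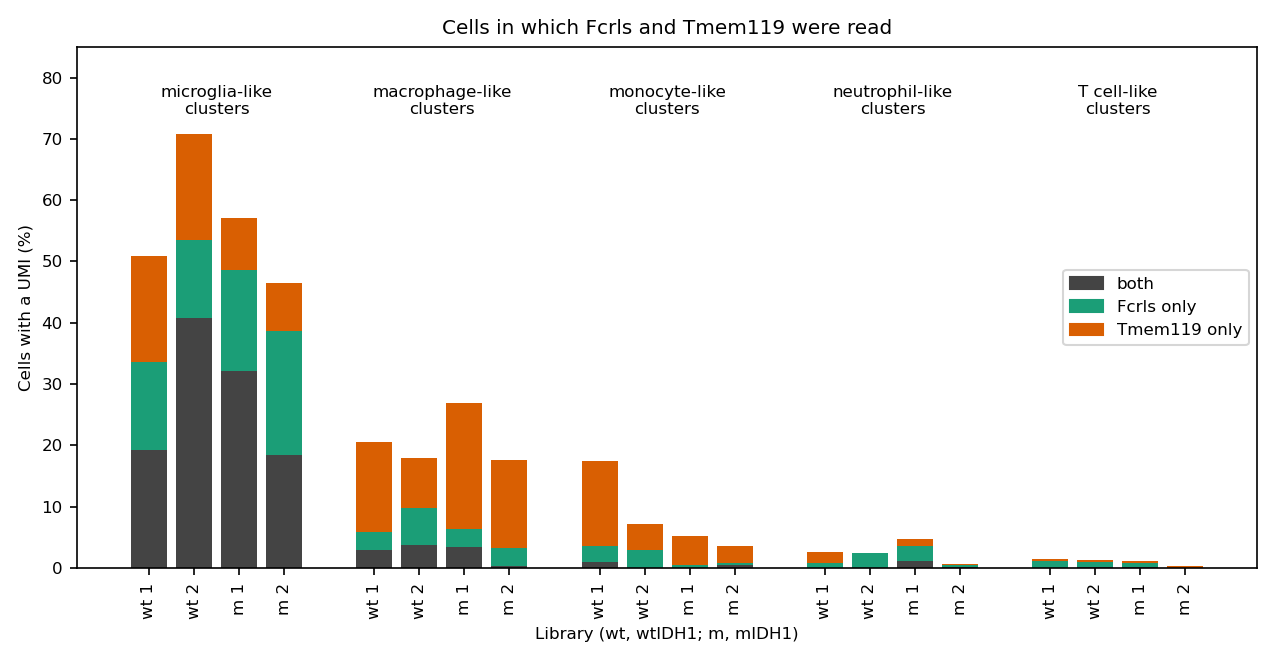
Stacked bars of the percentage of cells (y axis, from 0) by library and class of cluster. Bars are split into cells with UMIs of both Fcrls and Tmem119, Fcrls only, or Tmem119 only, without thinning to equal depth. Over the 4 libraries 261 of 899 cells in microglia-like clusters had both genes, and the Tmem119 only share was larger than the Fcrls only share in the macrophage-like and monocyte-like clusters (450 against 132 of 3293 cells, and 129 against 29 of 1517).

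Outside the gate genes, 27 members had 20 or more UMIs in microglia-gated cells, and their levels in the other gates, pooled over libraries covered a wide range. In both macrophage-gated and monocyte-gated cells, 9 of the 27 were under 10% of the microglia-gated level. In macrophage-gated cells alone 2 lay between 10% and 50%, 8 lay in that range in both, and 8 reached 50% or more in 1 or both. The limits are round numbers. Gpr34 at 7.22% and Olfml3 at 12.6% of the microglia-gated level lay on either side of the first limit in macrophage-gated cells, and Itgb5 at 47.2%, Selplg at 47.9% and Lpcat2 at 54.0% around the second. With clusters in place of gates for all 3 classes 22 of the 27 kept their group. P2ry12, Cx3cr1, Olfml3 and Cd81 then lay under 10% in both recruited classes (7.12%, 8.08%, 8.75% and 7.14% in macrophage-like clusters), and Lpcat2 between 10% and 50% in both. Ccr6 had 2 UMIs and Csmd3 16 in all microglia-gated cells and were not classed.

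**Figure D2:**
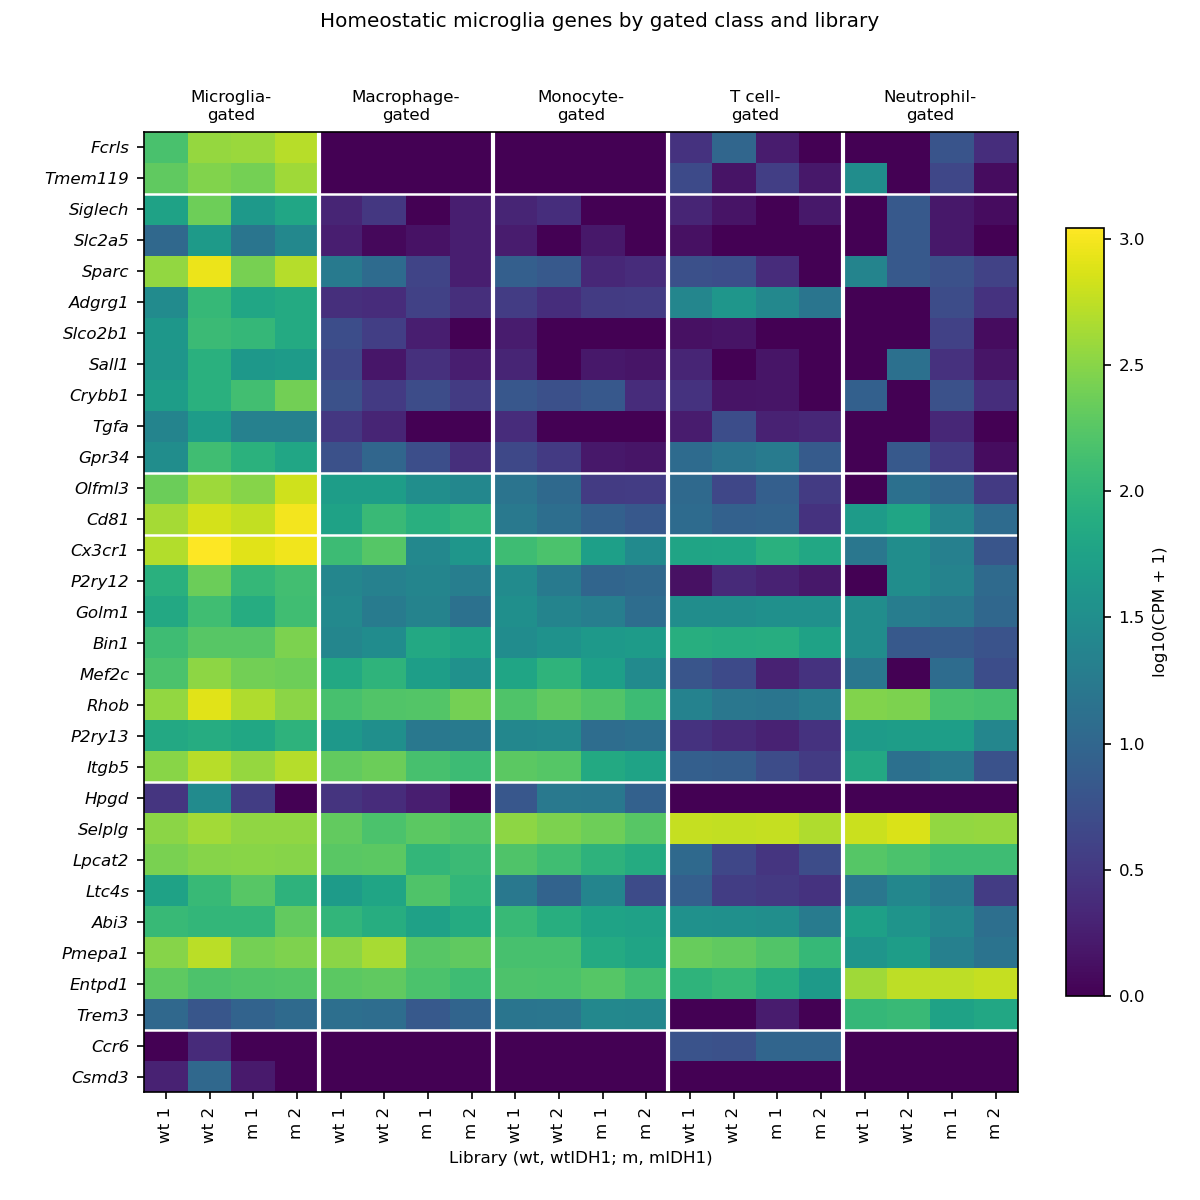
Level of each of the 31 members (rows, grouped by how they compared with microglia-gated cells) in the 4 libraries of 5 gated classes (columns), as log10(CPM + 1) on the colour scale. The rows of the group under 10% are bright in microglia-gated cells and dark in the other columns, and Selplg, Entpd1 and Abi3 are bright in several classes.

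The first group held receptors, a transcription factor and transporters. Sall1, a zinc-finger factor that keeps microglial identity, was at 38.2 and 85 CPM in microglia-gated cells of the wtIDH1 libraries and at 41.3 and 46.1 CPM in the mIDH1 libraries. Its level in macrophage-gated cells was 2.86% of that and in monocyte-gated cells 1.13%. Siglech, a sialic acid-binding lectin, was at 55.9 and 233 CPM and at 43.2 and 61.5 CPM, with wtIDH1 replicate 2 far above the other 3 libraries. Macrophage-gated cells held 1.15% and monocyte-gated cells 0.562% of its level. Gpr34, a receptor for lysophosphatidylserine, was at 30.4, 127, 87.8 and 61.5 CPM in the same order of libraries, and macrophage-gated cells held 7.22% of its level, between 2.55% and 15.5% by library. Sparc, a secreted matricellular protein, was at 358 and 908 CPM in the wtIDH1 libraries and at 263 and 512 CPM in the mIDH1 libraries, and 1.91% of that level was found in macrophage-gated cells. Crybb1, a beta-crystallin, was at 49.0 and 85 against 133 and 246 CPM, the mIDH1 libraries above both wtIDH1 libraries, and macrophage-gated cells held 3.29% of its level. Slco2b1, an organic anion transporter, was at 40.2, 117, 105 and 71.7 CPM and held 2.73% in macrophage-gated and 0.276% in monocyte-gated cells. Slc2a5, the fructose transporter, was at 9.80, 44.9, 14.2 and 25.6 CPM and held 1.88% and 1.57%. The EGF receptor ligand Tgfa was at 22.5 and 47.7 against 20.7 and 20.5 CPM, and the adhesion receptor Adgrg1 at 28.4 and 108 against 62.0 and 71.7 CPM. Tgfa held 3.49% and Adgrg1 2.48% of these levels in macrophage-gated cells, and 1.67% and 3.24% in monocyte-gated cells.

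These 9 were low in recruited myeloid cells, yet some were read in other cells. Adgrg1 in T cell-gated cells was 37.2% of its microglia-gated level, and Gpr34 15.5%, and in the same cells Sparc was at 0.507% and Siglech at 0.403%. Sparc was read in cells of no named class as well. Of its 6693 UMIs in kept cells 50.3% lay in the microglia-like clusters and 41.9% in the 7 unnamed clusters, 1279 UMIs of them in cluster 14 and 937 in cluster 22. In the plasmacytoid dendritic cell-like cluster 18 Siglech was at 2820 CPM, and that cluster held 58.4% of all Siglech UMIs of kept cells. Siglech is a known marker of plasmacytoid dendritic cells in mouse. A single Siglech UMI outside that cluster was rare in recruited cells: with every cell thinned to 2000 UMIs, 10.5% to 37.8% of microglia-gated cells by library had one (24.0% to 50% unthinned), and at most 1.14% of macrophage-gated, 0.606% of monocyte-gated and 0.475% of T cell-gated cells (at most 2.22%, 1.2% and 0.696% unthinned). The T cell-gated share is the background here, from cells with a median of 4213 to 5788 UMIs by library against 5352 to 9427 for microglia-gated cells, and thinning left out 42 of 340 microglia-gated cells that were shallower.

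Olfml3 and Cd81 were read in macrophages and hardly in monocytes. Olfml3, a secreted olfactomedin-like protein, was at 228 and 399 CPM in microglia-gated cells of the wtIDH1 libraries and at 309 and 671 CPM in the mIDH1 libraries. It was at 47.9 and 48.1 against 31.1 and 24.3 CPM in macrophage-gated cells, 12.6% of the microglia-gated level, and at 2.29% in monocyte-gated cells. T cell-gated cells held 1.91%, so the monocyte-gated level was close to that background. Cd81, a tetraspanin, was at 427, 711, 586 and 968 CPM in microglia-gated cells, with 14.8% of that level in macrophage-gated, 1.77% in monocyte-gated and 1.28% in T cell-gated cells. For both genes wtIDH1 replicate 1 was lowest and mIDH1 replicate 2 highest among the microglia-gated values, and the genotypes overlapped.

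The middle group included 3 genes often used to define microglia, P2ry12, P2ry13 and Cx3cr1. P2ry12, the ADP receptor that directs microglial processes, was at 85.3 and 231 CPM in microglia-gated cells of the wtIDH1 libraries and at 106 and 133 CPM in the mIDH1 libraries, and at 23.8, 21, 23.0 and 18.8 CPM in macrophage-gated cells (15.1%). Monocyte-gated cells held 11.9% and T cell-gated cells 0.562% of that level. Its share of cells with a UMI at 2000 UMIs was 15.8% to 38.7% in microglia-gated, 3.53% to 4.58% in macrophage-gated and at most 0.585% in T cell-gated cells (40.9% to 64.0%, 17.4% to 21.7% and at most 0.765% unthinned). The neighbouring gene P2ry13, another ADP receptor on chromosome 3, was less selective, at 67.6, 76.0, 63.2 and 92.2 CPM in microglia-gated cells and at 42.7% of that level in macrophage-gated cells (17.9% to 60.8% by library). Neutrophil-gated cells held 46.5% of it. Cx3cr1, the receptor for fractalkine, was at 486 and 1105 CPM in the wtIDH1 libraries and at 798 and 948 CPM in the mIDH1 libraries in microglia-gated cells, with 14.1% of that in macrophage-gated, 10.5% in monocyte-gated and 8.36% in T cell-gated cells. By library the macrophage-gated share of Cx3cr1 ran from 3.19% to 25.1%, and both mIDH1 libraries were lower than both wtIDH1 libraries. Mef2c, a transcription factor of microglial identity that B cells also use, was at 151, 335, 245 and 236 CPM and held 28.9% in macrophage-gated cells, and it reached 821 CPM in the B cell-like cluster 17.

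Of the other members of the middle group, Bin1 and Golm1 were read in T cells as well. Bin1, which shapes membranes in endocytosis, was at 125 and 178 against 178 and 277 CPM in microglia-gated cells, with 22.0% of that level in macrophage-gated, 21.9% in monocyte-gated and 43.7% in T cell-gated cells. Golm1, a Golgi membrane protein, was at 68.6, 128, 76.1 and 128 CPM and held 21.6%, 23.3% and 33.3% in the same classes. Rhob, a small GTPase and early stress-responsive gene, was at 357, 801, 479 and 328 CPM, and macrophage-gated cells held 30.3% of its level, with 78.5% in mIDH1 replicate 2, and T cell-gated cells 3.09%. Itgb5, an integrin subunit, was at 315, 526, 368 and 502 CPM and held 47.2% in macrophage-gated, 30.6% in monocyte-gated and 1.27% in T cell-gated cells. Thus Itgb5 was shared among the 3 myeloid gates and near background in T cells, and the pooled levels of Bin1 and Golm1 were higher in T cell-gated cells than in either recruited class.

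The last group reached 50% or more of the microglia-gated level in 1 or both recruited classes. Selplg, the P-selectin ligand whose gene lies beside Tmem119 on chromosome 5, was at 329, 417, 343 and 343 CPM in microglia-gated cells, with 47.9% of that in macrophage-gated, 72.2% in monocyte-gated and 158% in T cell-gated cells. Entpd1, the ecto-nucleotidase CD39, was at 191, 157, 164 and 169 CPM, with 108% in macrophage-gated, 90% in monocyte-gated and 345% in neutrophil-gated cells. Trem3, a receptor of the TREM family, had 33 UMIs in microglia-gated cells, with 130% in macrophage-gated, 246% in monocyte-gated and 828% in neutrophil-gated cells. Pmepa1, an inhibitor of TGF-beta signalling that TGF-beta itself induces, was at 308 and 527 against 256 and 282 CPM in microglia-gated cells, and was at 91.9% in macrophage-gated and 29.0% in monocyte-gated cells. Abi3, an adaptor of the actin-regulating WAVE complex, held 71.9% and 72.5%. Of the lipid enzymes, Ltc4s, which makes leukotriene C4, was at 55.9, 111, 177 and 92.2 CPM and held 65.3% in macrophage-gated but 10.7% in monocyte-gated cells, and Lpcat2, which remodels membrane phospholipids, was at 269, 305, 318 and 307 CPM and held 54.0% and 38.9%. Hpgd, which breaks down prostaglandins, had 47 UMIs in microglia-gated cells, mostly in wtIDH1 replicate 2 (28.3 CPM, against 1.96 and 2.58 CPM in wtIDH1 replicate 1 and mIDH1 replicate 1). Its level in monocyte-gated cells was 89.6% of the microglia-gated level, and the monocyte-like cluster 1 was at 66.9 CPM. Ccr6, a chemokine receptor of lymphocytes, was at 97.1 CPM in the B cell-like cluster 17 and at 34.5 CPM in the T cell-like cluster 20, and had 0 UMIs in the macrophage-gated and monocyte-gated cells, which allows up to 0.228 CPM in the first. Csmd3, a large transmembrane protein, also had 0 UMIs there.

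**Figure D3:**
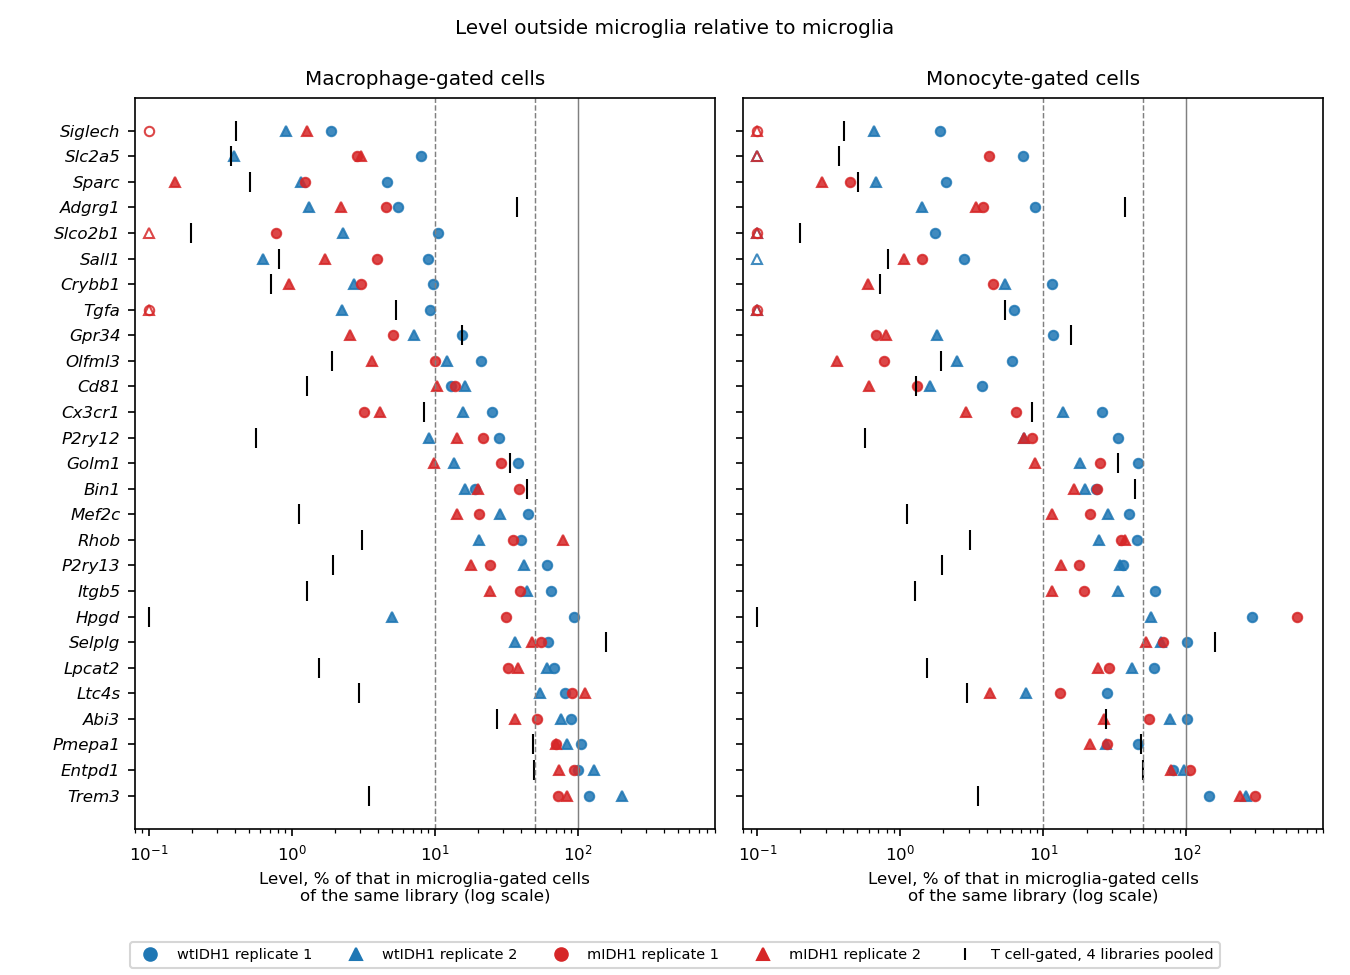
Level of each classed member in macrophage-gated (left) and monocyte-gated (right) cells as a percentage of its level in microglia-gated cells of the same library (logarithmic x axis, 1 symbol per library, open symbols at the left edge for values under the plotted range). Black ticks mark T cell-gated cells over all libraries, dashed lines 10% and 50%, and the solid line 100%. Siglech, Sparc and Sall1 lie at the left, and Entpd1 and Trem3 near or above 100%.

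The class differences were tested over libraries, with each library as a block, by edgeR's quasi-likelihood test with Benjamini-Hochberg adjustment over all genes (n = 4 libraries per class). The gate genes were left out, because the gates fix their direction. Of 26 members that passed the filter on low counts, 22 were higher in microglia-gated than in macrophage-gated cells and 0 lower. An unadjusted p under 0.05 was found for 24 members by this test, beside 1891 of all 8691 genes. The filter took both classes together, and 20 members passed it in macrophage-gated cells alone. Some members were thus open to the test only through their level in microglia-gated cells. The list is of microglia genes, chosen with earlier results of these data known, so the count gives no independent support. Among all 8691 genes tested, 8.65% were called, 5.83% as higher and 2.82% as lower, and the median log2 difference was 2.42 for the members beside -0.01 for all genes. By log2 difference Siglech stood at 6.55 ± 0.26 (SE), Sparc at 5.84 ± 0.35, Adgrg1 at 5.23 ± 0.30 and Sall1 at 5.07 ± 0.42. Siglech had 17, Adgrg1 23 and Sall1 21 UMIs in all macrophage-gated cells, so the size of their differences rests on low counts. Siglech, Adgrg1 and Sall1 were among the members open to the test only through microglia-gated cells. The direction of their differences was thus set by the filter. Cx3cr1, with its wide range between libraries, differed by 3.40 ± 0.40 (adjusted p = 0.000152). Abi3 was the weakest call, at 0.65 ± 0.17 (adjusted p = 0.0342), and it was lost in 7 other settings, among them DESeq2 and 3 of the 4 fits that left out 1 library. The members not called were Entpd1 at -0.01 ± 0.13, Ltc4s at 0.36 ± 0.15, Pmepa1 at 0.29 ± 0.13 and Trem3 at -0.27 ± 0.33.

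Against monocyte-gated cells, 22 of 27 members tested were higher in microglia-gated cells and 1 was lower. The background in this comparison was high, since 31% of 8475 genes were called, 15.8% as higher and 15.2% as lower. Slco2b1 differed by 7.75 ± 0.44 on the log2 scale, Siglech by 6.83 ± 0.37, Sparc by 6.76 ± 0.33 and Cd81 by 5.89 ± 0.33. Slco2b1 had 2 UMIs and Siglech 5 in all monocyte-gated cells, so the size of their differences rests on levels at the floor. In monocyte-gated cells alone 20 members passed the filter, so some were open to the test only through microglia-gated cells. Slco2b1 and Siglech were among these, so the direction of their differences was set by the filter. The single lower member was Trem3, at -1.25 ± 0.30 (adjusted p = 0.00815, edgeR), a call lost without mIDH1 replicate 1 (adjusted p = 0.0822) and at a mitochondrial limit of 5% (adjusted p = 0.0675). Abi3, Entpd1, Hpgd and Selplg were not called, at 0.64 ± 0.24, 0.10 ± 0.14, -0.59 ± 0.53 and 0.44 ± 0.16. The microglia gate held cells from macrophage-like clusters, and in these gated cells 10 recruited macrophage markers summed to 11880, 7344, 10981 and 7017 CPM, beside 11189 to 18608 CPM in macrophage-gated cells, 4 of the 10 being genes of the macrophage gate. Their part in the class differences was not tested.

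The question of the design is how these cells differ between mIDH1 and wtIDH1 tumours. In microglia-gated cells none of 28 members tested was called between genotypes by edgeR, beside 0.569% of 8607 genes (0.453% higher and 0.116% lower). The 28 include the 2 gate genes, whose level in gated cells is set in part by the gate. Of the other 26 members, 4 had an unadjusted p under 0.05 by edgeR, beside 755 of all 8607 genes. DESeq2 called 1, Crybb1 (log2 change 1.65, adjusted p = 0.0257). By edgeR, Siglech and Hpgd were called without wtIDH1 replicate 1 (adjusted p of 0.000368 and 0.00628) and Crybb1 without wtIDH1 replicate 2 (adjusted p = 0.0173). In the edgeR fit Crybb1 was at 1.58 ± 0.37 (adjusted p = 0.124), Siglech at -1.42 ± 0.54 (adjusted p = 0.489), Ltc4s at 0.97 ± 0.35 (adjusted p = 0.448) and Bin1 at 0.72 ± 0.31 (adjusted p = 0.551). The median over these 26 members was 0.17 beside -0.02 over all genes, with values from -1.42 to 1.58. The 2 wtIDH1 libraries stood apart from each other: replicate 2 was the highest of the 4 libraries for 18 of the 29 members outside the gate and replicate 1 the lowest for 17.

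The same spread showed in microglia-like clusters, which took their name from gated cells but held ungated cells as well. Siglech was at 125 and 471 CPM there in the wtIDH1 libraries and at 74.7 and 52.2 CPM in the mIDH1 libraries, and Sall1 at 97.2 and 174 against 77.5 and 52.2 CPM, so that both genes were lower without overlap. P2ry12 was at 165 and 429 against 169 and 123 CPM and Cx3cr1 at 1009 and 1934 against 1205 and 891 CPM, with overlap. Crybb1 was at 133 and 183 against 200 and 209 CPM, higher in mIDH1 without overlap. Within both microglia-like clusters, 19 and 25, Siglech, Sall1, Sparc, Tgfa, Slc2a5, P2ry13 and Rhob were lower in mIDH1 without overlap. Entpd1 and Trem3 were higher in both, but Trem3 rested on single UMIs. It had 0 and 1 against 3 and 1 UMIs in cluster 19, and 2 and 2 against 8 and 1 in cluster 25. In wtIDH1 replicate 1 of cluster 19, 0 UMIs allows up to 8.71 CPM, above the 8.33 and 5.95 CPM of the mIDH1 libraries. Cx3cr1 was lower without overlap within cluster 19 (1158 and 1491 against 969 and 530 CPM) and overlapped within cluster 25. How many of all genes did not overlap was not counted, and these values are descriptions without a test. With clusters in place of gates no member was called.

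**Figure D4:**
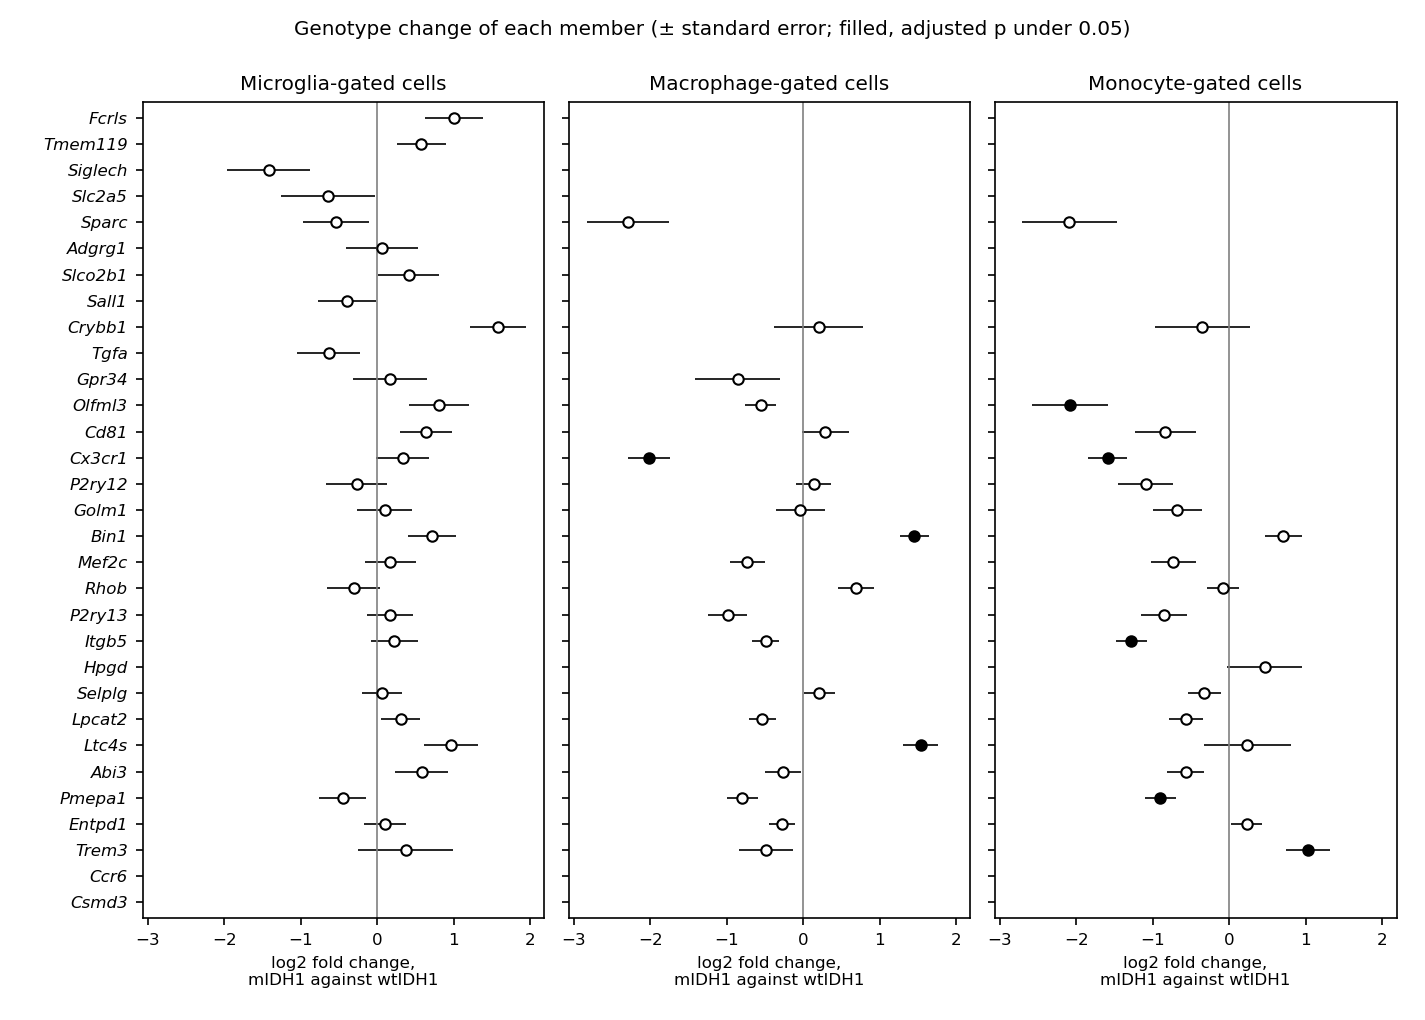
Log2 change in mIDH1 against wtIDH1 (y axis, with its standard error as bars) for each member tested in microglia-gated, macrophage-gated and monocyte-gated cells, from edgeR on 2 libraries per genotype. Filled symbols mark an adjusted p under 0.05: none in microglia-gated cells, where Fcrls and Tmem119 are gate genes, 3 of 20 in macrophage-gated and 5 of 20 in monocyte-gated cells.

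In macrophage-gated cells Cx3cr1 fell and Bin1 and Ltc4s rose. Cx3cr1 (chromosome 9, 119901616 to 120069879) was at 122 and 173 CPM in the wtIDH1 libraries and at 25.4 and 39.2 CPM in the mIDH1 libraries, a log2 change of -2.02 ± 0.27 (adjusted p = 0.00656, edgeR). Bin1 was at 23.8 and 28.9 against 68.6 and 55.7 CPM (1.46 ± 0.20, adjusted p = 0.00656), and Ltc4s (chromosome 11, 50236461 to 50238616) at 45.3 and 60.4 against 161 and 104 CPM (1.54 ± 0.23, adjusted p = 0.00963). For each of the 3 genes the genotypes did not overlap. Of the 27 members with a UMI in this gate, 16 were lower and 3 higher in mIDH1 without overlap, so this does not set them apart. The share over all genes was not counted. With these, 2 of 20 members tested were called higher and 1 lower, beside 3.01% and 0.808% of 9898 genes, 3.82% in all, and the members' median was -0.38 beside -0.02. With library totals as the only scaling the median of all genes moved to -0.23, and the calls over all genes split into 193 higher and 209 lower in place of 298 and 80. The 3 changes kept their direction in all settings run, and all 3 missed the threshold without mIDH1 replicate 1 (Cx3cr1 -1.63, Bin1 1.35 and Ltc4s 1.25, with adjusted p-values of 0.060, 0.0538 and 0.060). Sparc at -2.29 ± 0.54, Pmepa1 at -0.79 ± 0.21 and P2ry13 at -0.99 ± 0.26 lay just outside it (adjusted p of 0.0531, 0.0694 and 0.0690).

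Different clusters filled the macrophage gate in the 2 genotypes. Cluster 3 held 139 and 265 of its cells in the wtIDH1 libraries against 32 and 20 in the mIDH1 libraries, and cluster 4 held 10 and 7 against 88 and 37. Within cluster 3 Cx3cr1 was at 134 and 200.2 against 91.1 and 71.9 CPM, and within cluster 4 at 166 and 41.8 against 34.4 and 23.0 CPM. It was lower in mIDH1 without overlap in clusters 0, 3, 4, 5 and 6 of the 7 macrophage-like and monocyte-like clusters, and overlapped in clusters 1 and 21. Bin1 was higher without overlap in 6 of the 7 and overlapped in cluster 4. Ltc4s within cluster 3 was at 31.8 and 48.3 against 51.5 and 65.5 CPM and within cluster 4 at 15 and 28.8 against 184 and 88.5 CPM, and was lower in mIDH1 in cluster 21 (91.3 and 98.9 against 33.6 and 35.9 CPM). These values within clusters are descriptions without a test.

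In monocyte-gated cells 4 members fell and 1 rose. Cx3cr1 was at 125 and 151 CPM in the wtIDH1 libraries and at 51.3 and 27.3 CPM in the mIDH1 libraries (-1.59 ± 0.26, adjusted p = 0.00445, edgeR). Itgb5 (chromosome 16, 33829665 to 33949338) was at 190.3 and 174 against 70.1 and 57.9 CPM (-1.28 ± 0.21, adjusted p = 0.00445). These 2 calls held in every setting run. Pmepa1 (chromosome 2, 173224458 to 173276533) was at 142 and 144 against 70.7 and 59.4 CPM (-0.90 ± 0.20, adjusted p = 0.0162), and missed the threshold without wtIDH1 replicate 1 or 2 (adjusted p of 0.117 and 0.0598). Olfml3 (chromosome 3, 103722222 to 103738001) was at 13.7 and 9.90 against 2.36 and 2.43 CPM (-2.09 ± 0.50, adjusted p = 0.0217) and missed it without wtIDH1 replicate 1 (adjusted p = 0.320). Its mIDH1 level was near that of few UMIs.

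The monocyte gate, too, was filled differently in the 2 genotypes. Macrophage-like clusters held 14.1% and 13.3% of its cells in the wtIDH1 libraries against 27.6% and 31.3% in mIDH1, and cluster 4 held 9 and 9 against 43 and 52. Itgb5 was lower in mIDH1 without overlap within clusters 0, 1 and 5 and overlapped within clusters 3, 4, 6 and 21. In cluster 0, the largest monocyte-like one, it was at 203 and 210.1 against 91.1 and 78.2 CPM. Olfml3 was lower within cluster 0 (17.5 and 11.3 against 3.50 and 1.64 CPM), higher without overlap within clusters 3 and 21, and overlapped within clusters 1, 4, 5 and 6. These are descriptions without a test.

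The gene that rose was Trem3 (chromosome 17, 48247777 to 48258841), at 14.1 and 14.5 against 25.3 and 24.3 CPM (1.03 ± 0.28, adjusted p = 0.0384, edgeR). In neutrophil-gated cells Trem3 was 828% of the microglia-gated level, at 106 and 116 against 55.8 and 65.3 CPM. Neutrophil RNA markers were higher in the mIDH1 libraries of this gate and of macrophage-gated cells. In the latter Trem3 was at 11.8 and 11.2 against 6.05 and 8.63 CPM. Trem3 was higher in mIDH1 without overlap within clusters 0 and 1 and overlapped within clusters 3, 4, 5 and 21. It was lower within cluster 6, on only 2 and 9 against 1 and 0 UMIs. The part of neutrophil RNA in its change was not tested. The Trem3 call was lost without wtIDH1 replicate 1, wtIDH1 replicate 2 or mIDH1 replicate 2 (log2 change 1.05, 1.02 and 0.99). With library totals it was lost as well (adjusted p = 0.0793, edgeR). DESeq2 gave no adjusted p for Olfml3 and Trem3. Of all 8589 genes 10.1% were called, 6.95% higher and 3.12% lower, beside 1 higher and 4 lower of 20 members tested. The members' median was -0.62 beside -0.02. With library totals as the only scaling the median of all genes moved to -0.26, and the calls over all genes split into 456 higher and 1011 lower in place of 597 and 268. P2ry12 at -1.09 ± 0.36, Bin1 at 0.71 ± 0.24 and Sparc at -2.09 ± 0.62 were not called (adjusted p of 0.0734, 0.0822 and 0.0523).

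**Figure D5:**
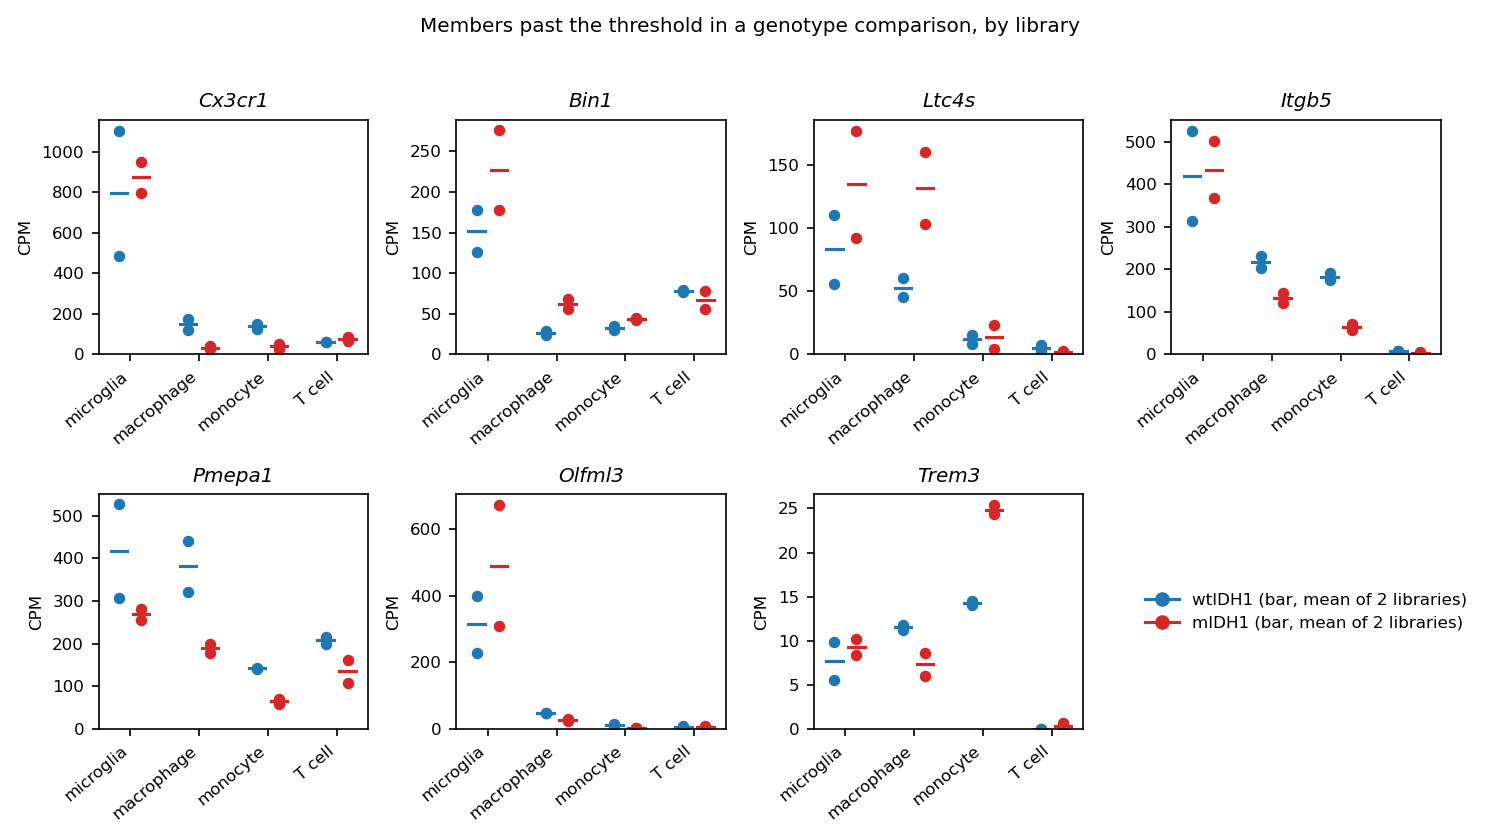
Level (CPM, y axis) of the 7 members called in macrophage-gated or monocyte-gated cells, by library, in microglia-gated, macrophage-gated, monocyte-gated and T cell-gated cells. Cx3cr1 in macrophage-gated cells lies at 122 and 173 CPM in the wtIDH1 libraries and at 25.4 and 39.2 CPM in the mIDH1 libraries, and in microglia-gated cells its values overlap between genotypes.

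Whether a genotype change differed between microglia-gated and macrophage-gated cells was tested by an interaction term in a fit blocked by library. Of 26 members tested, 1 was called, Cx3cr1, beside 0.945% of 9415 genes (0.414% with a higher change in microglia-gated cells). Its change in microglia-gated cells was 2.46 ± 0.27 higher on the log2 scale than in macrophage-gated cells (adjusted p = 2.44e-06, edgeR), and was 0.33 ± 0.35 in the first alone. With clusters in place of gates the difference was 1.45 (adjusted p = 0.033). It was not called with Fcrls or Tmem119 as the gate (1.58, adjusted p = 0.245) or without the library block (2.37, adjusted p = 0.589). In T cell-gated cells Cx3cr1 was at 59.1 and 60.3 CPM in the wtIDH1 libraries and at 84.2 and 65.5 CPM in the mIDH1 libraries, the mIDH1 libraries not below the wtIDH1 libraries. Lpcat2, Olfml3, Mef2c and P2ry13 had differences of 0.90 to 1.23 that were not called (adjusted p of 0.0550 to 0.0893).

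The regulators of the programme were taken from a fixed list of 20 TGF-beta pathway and identity genes. Over all genes, 3.01% were called higher and 0.808% lower between genotypes in macrophage-gated cells, and 6.95% and 3.12% in monocyte-gated cells. In microglia-gated cells 0 of 19 tested passed between genotypes. In macrophage-gated cells 1 of 19 fell, Tgfbr1, the signalling receptor of TGF-beta, from 153 and 154 CPM to 37.5 and 43.2 CPM (-1.73 ± 0.19, adjusted p = 0.00278, edgeR). In monocyte-gated cells 4 of 18 fell, namely Tgfbr1 (127 and 89.9 against 40.1 and 21.9 CPM, -1.62 ± 0.29), the SMAD repressors Ski (-1.14 ± 0.23) and Skil (-0.95 ± 0.21), and the MEF2 family member Mef2a (-0.93 ± 0.23), and 0 rose. Skil and Mef2a missed the threshold without wtIDH1 replicate 1 (adjusted p of 0.0880 and 0.126), and Mef2a also without mIDH1 replicate 2 (0.0610), whereas Tgfbr1 was called in both gates in every setting run. Tgfbr1 in microglia-gated cells was at 167 and 169 against 96.8 and 123 CPM and was not called. Against macrophage-gated cells 6 of the 19 were higher in microglia-gated cells, beside 5.83% of all genes. Among them were the growth factor receptor Csf1r (1.24 ± 0.14), Bhlhe41 (1.88 ± 0.29) and Tgfbr2 (1.29 ± 0.21). Against monocyte-gated cells 5 were higher and 2 lower, beside 15.8% and 15.2% of all genes.

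Of a list of 28 other microglia genes, 20 of 27 tested were higher and none lower in microglia-gated than in macrophage-gated cells, and 21 were higher and 1 lower than in monocyte-gated cells. Nav3 differed most from macrophage-gated cells (7.03 ± 0.33). This list, too, was of microglia genes, so these counts give no independent support. Over all genes 5.83% were called higher against macrophage-gated and 15.8% against monocyte-gated cells. Between genotypes 1 of 27 was called in microglia-gated cells, the protease inhibitor Serpine2, which fell (-3.17 ± 0.55, adjusted p = 0.0219, edgeR). The call was lost without mIDH1 replicate 1 or 2 (log2 changes of -2.84 and -3.24). It was also lost at a mitochondrial limit of 5% and with Fcrls or Tmem119 as the gate (adjusted p of 0.0888 and 0.195, edgeR). In macrophage-gated cells Trem2, a lipid-sensing receptor, rose (0.82 ± 0.18) and Tgfbr1, Hpgds (-1.11 ± 0.21) and the efferocytosis receptor Mertk (-0.78 ± 0.17) fell, of 22 tested. The calls of Trem2, Hpgds and Mertk were lost without mIDH1 replicate 1 (adjusted p of 0.0801, 0.0849 and 0.114) and without mIDH1 replicate 2 (0.199, 0.161 and 0.182), and those of Trem2 and Mertk also without wtIDH1 replicate 2 (0.153 and 0.0741). In monocyte-gated cells 2 of 20 rose and 5 fell, among them Tyrobp (1.22 ± 0.25) and Mertk (-1.46 ± 0.34), and without wtIDH1 replicate 1 both missed the threshold (adjusted p of 0.0864 and 0.10). Tyrobp also missed it without wtIDH1 replicate 2 (0.0902). Shares of all genes called higher and lower between genotypes were 0.453% and 0.116% in microglia-gated cells. They were 3.01% and 0.808% in macrophage-gated and 6.95% and 3.12% in monocyte-gated cells.

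Of 19 genes of microglial activation, Itgax, the integrin CD11c, fell in microglia-gated cells (-2.00 ± 0.31, adjusted p = 0.0123, edgeR) and 0 rose. The Itgax call was lost without mIDH1 replicate 1 or 2 (log2 changes of -2.70 and -1.84). It was also lost with Fcrls or Tmem119 as the gate and with the gate within microglia-like clusters (adjusted p of 0.0877 and 0.113, edgeR). In macrophage-gated cells 3 rose, the chemokine Ccl6 (2.45 ± 0.25), osteopontin Spp1 (1.38 ± 0.20) and the galectin Lgals3 (1.51 ± 0.26), and 2 fell, and Lgals3 missed the threshold without mIDH1 replicate 1 or 2 (adjusted p of 0.0559 and 0.126). In monocyte-gated cells 7 of 17 rose and 2 fell, the latter Axl (-2.20 ± 0.27) and Itgax (-1.73 ± 0.22). Shares of all genes called higher and lower were 0.453% and 0.116% in microglia-gated cells. They were 3.01% and 0.808% in macrophage-gated and 6.95% and 3.12% in monocyte-gated cells. The summed level of the 29 homeostatic members outside the gate in microglia-gated cells was 4220 and 7911 against 5352 and 6807 CPM, with overlap.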

How the data were processed

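The deposited matrices held raw UMI counts per gene and cell barcode for 4 libraries. Per the labels' protocols, the authors used Cell Ranger 3.1 with STAR on mm10, and the matrix header gives software version 3.0.0. The labels also describe scaling of the combined runs to equal depth, but the deposited counts are whole numbers of unequal depth (20908476 to 29849183 UMIs per library), and were used as raw counts.

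Cells with 200 or more genes and at most 10% mitochondrial UMIs were kept. Scrublet's automatic threshold marked under 0.5% of cells, so the highest doublet scores were removed at an expected rate of 0.8% per 1000 cells. Marker gates were applied per cell, and a cell in 2 or more gates was left out. For alternatives, cells were clustered (Leiden, 2000 variable genes, 30 components, 15 neighbours, resolution 1.0, scanpy 1.11.5), and each cluster took the name of the gate with most of its gated cells. For each class, counts were summed by library, and the sums tested with edgeR 4.0.16 (TMM, filterByExpr, quasi-likelihood, Benjamini-Hochberg threshold 0.05) across all genes, under R 4.3.3. DESeq2 1.42.0 was an alternative. The scripts were tested on simulated data. Percentages of cells with a UMI of Siglech or P2ry12 are given after thinning to 2000 UMIs per cell, beside unthinned values. Counts and shares of cells with Fcrls or Tmem119 were not thinned. With 2 libraries per genotype the spread rests on few degrees of freedom, shared across genes, and deeper classes give smaller errors: microglia-gated cells held 195248 to 1549582 UMIs per library.

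All 31 members could be named, and of each other list (other microglia genes, TGF-beta and identity regulators, activation genes, markers of recruited and border macrophages, monocytes, neutrophils, T cells and non-immune brain cells, and dissociation genes) up to 4 with the lowest p. Members, lists and gates were chosen with earlier results of these data known. Coordinates are from GENCODE M21 (mm10), promoter sequences from RefSeq.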

Additional observations from a re-analysis of the deposited data

Results flagged for a closer look

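The change between genotypes differed between microglia-gated and macrophage-gated cells for Cx3cr1 by 2.46 on the log2 scale in the interaction test (edgeR, adjusted p = 2.44e-06, range over alternatives 1.45 to 2.84, higher in all of them). The genotypes overlapped in microglia-gated cells (486 and 1105 against 798 and 948 CPM) and did not in macrophage-gated cells (122 and 173 against 25.4 and 39.2 CPM).

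The 2 chains of the TGF-beta receptor met the same test, Tgfbr1 with a difference of 1.29 (adjusted p = 0.00590) and Tgfbr2 with 1.21 (adjusted p = 0.00918). Without wtIDH1 replicate 1, wtIDH1 replicate 2, mIDH1 replicate 1 or mIDH1 replicate 2 neither was called (Tgfbr1 0.0936, 0.248, 0.288 and 0.198, Tgfbr2 0.20, 0.280, 0.183 and 0.272), nor by DESeq2 (adjusted p of 0.311 and 0.467). Groups of 2 libraries allowed no check for single libraries that stand apart.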

How the results depend on the processing

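Of 1935 single-gene values recomputed under alternative settings, 1764 kept their direction and side of the threshold, 104 missed it, 62 newly passed it and 5 changed sign. None of the 5 was called as reported: Abi3 between genotypes in monocytes with clusters (0.0039), Ltc4s against macrophages (-0.061), Selplg against monocytes (-0.067) and Ltc4s in the interaction (0.12) with Fcrls or Tmem119 as the gate, and Sparc in the interaction with clusters (-0.039). The cause was not tested. Counts of calls below are over all genes, with members in brackets.

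Between genotypes in microglia-gated cells, 49 (0) calls became 192 (3) with no filter and 78 with clusters, and 4 to 163 (0 to 2, the gate gene Fcrls among them without wtIDH1 replicate 2) when 1 library was left out, and DESeq2 called 1 member. In macrophage-gated cells, 378 (3) became 1141 (8) with no filter, 635 at a mitochondrial limit of 5%, 603 with the gate whatever Fcrls and Tmem119, 1155 (6) with clusters, (7) with library totals, and 74 to 770 (0 to 6) with 1 library left out. In monocyte-gated cells, 865 (5) became 1467 (10) with library totals, 1365 (8) with no filter, 1298 (9) with clusters, (3) by DESeq2, and 364 to 2128 (2 to 8) with 1 library left out.

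Against macrophage-gated cells, 752 (22) became 501 by DESeq2, 1357 with no filter, 383 at 5% mitochondrial UMIs, 295 with Fcrls or Tmem119 as the gate, 2310 with clusters and 1662 with the gate within microglia-like clusters, an alternative chosen after seeing the data, and 349 to 720 (21 to 22) with 1 library left out. Against monocyte-gated cells, 2628 (23) became 1735 at 5% and 1470 to 2650 (22 to 25) with 1 library left out. In the interaction, 89 (1) became 11 by DESeq2, 156 (5) with no filter, 31 (2) at 5%, 1 (0) with Fcrls or Tmem119 as the gate, 46 with clusters, 55 (2) within microglia-like clusters and 10 to 41 with 1 library left out.

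The labels number the libraries of each genotype 1 and 2 and do not say that the numbers pair them, and deviations of same-numbered libraries correlated at -0.0056, -0.169 and 0.0857 over genes in microglia-gated, macrophage-gated and monocyte-gated cells. The replicate block gave 106 (1), 364 (4) and 1627 (10) calls between genotypes. Without the library block 484 genes were called against macrophage-gated cells and 1 (0) in the interaction. The 25 microglia-gated cells of mIDH1 replicate 2, with 195248 UMIs, limit what low members can show: 0 UMIs there allows up to 15.4 CPM.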

Other observations

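Markers of recruited cells also changed between genotypes in the gates. The counts below stand beside the shares of all genes called higher and lower. These were 0.453% and 0.116% in microglia-gated, 3.01% and 0.808% in macrophage-gated, and 6.95% and 3.12% in monocyte-gated cells. In macrophage-gated cells 4 of 10 recruited macrophage markers rose in mIDH1 by edgeR and 0 fell, among them Arg1, the arginase of tumour macrophages (1.70 ± 0.23, adjusted p = 0.00679), and Clec12a (2.08 ± 0.28). In monocyte-gated cells 3 rose, with Mrc1, a gene of the macrophage gate, at 3.05 ± 0.25, and in microglia-gated cells 0 of 10 passed and 0 fell. Of the border macrophage markers, Cbr2 (5.19 ± 0.43) and Pf4 (1.99 ± 0.24) rose among 4 tested in macrophage-gated cells, 2 of 3 rose in monocyte-gated cells, and 0 of 3 passed in microglia-gated cells. Monocyte markers rose for 2 of 7 in macrophage-gated cells, Vcan (1.99 ± 0.28) and Chil3 (4.11 ± 0.59), for 3 of 7 in monocyte-gated cells and for 0 of 7 in microglia-gated cells.

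No T cell marker passed the filter on low counts in these gates, and 0 of 2 non-immune brain cell markers tested was called between genotypes in any of the 3. Of 9 dissociation and stress genes, 0 were called in microglia-gated cells, Hspa1b rose in macrophage-gated cells (1.59 ± 0.32), and Hspa1b and Hspa1a rose and Dusp1 and Fos fell in monocyte-gated cells. Sparc was at 9230 CPM in an unnamed cluster of 49 cells, which rests on 255 Sparc UMIs.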
